A study of Gallus gallus with 6 samples.

Results

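The genes studied here encode the complement and coagulation factors, the plasma proteins of innate defence and blood clotting, which are made largely in the liver. A list of 41 such genes, drawn up by gene name with earlier results of these data known but with no threshold on a measured value, was matched to the 20498 genes of the expression table. In all, 39 were found, 38 of them by their own symbol and 1 by a synonym (the gene listed as C4BPA is C4BPM in the chicken gene table), while CFB and C9 were not analysed here. Of the 39 genes, 15 belong to the complement cascade. The other 24, called clotting genes below, cover clotting, its control and the removal of clots. They also include 4 adhesive and multifunctional plasma proteins (KNG1, HRG, VTN and SERPINF1), counted there because they fell outside the complement roles.

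Complement is a chain of proteases that is set off by antibodies, by sugars on microbes or by slow spontaneous activation of C3. The branches meet at C3, and the terminal components then assemble into a pore in the target membrane. In coagulation, a chain of proteases, several of which need vitamin K for their synthesis, ends with thrombin, which turns fibrinogen into fibrin. Circulating inhibitors restrain both cascades, and plasmin later dissolves the clot. The roles given below are known mainly from mammals.

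Liver RNA was sequenced from 6 F1 males of the dwarf Jingxing-Huang (JXH) breed at 36 weeks of age, with 1 library per bird. The 3 birds with fatty liver belonged to the paternal inheritance group, whose sires had fatty liver induced by a high-fat (HF) diet and were mated with hens without fatty liver that had been fed the HF diet as well, and the 3 control birds with non-fatty liver came from parents on the basal diet. All 6 birds were themselves raised on the basal diet, so neither group received the HF diet directly. Every bird with fatty liver was from the paternal group and every bird without it from the control group, so parentage and liver phenotype cannot be told apart.

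The values are FPKM, the fragments of a gene scaled to its exon length and to the fragments of the library. The libraries held between 8860633 and 10403636 fragments, as worked out from the values. The 10886 genes averaging 1 FPKM or more over the 6 birds were compared with limma on log2(FPKM + 1), a scale on which changes of weakly expressed genes come out too small, and p-values were adjusted over all of them by the Benjamini-Hochberg method. Most tested genes (67.2%) stood higher in fatty liver on the deposited values, and their median log2 fold change was 0.12. When each library was instead scaled on its total outside the 50 most abundant genes, 47.8% stood higher and the median was -0.01. Values on this second scale are called rescaled, and fold changes below are as deposited unless so called. Among the tested genes of the list, 23 were lower in fatty liver as deposited and 32 when rescaled. The direction of a small rise below can therefore depend on the scaling. With 3 birds against 3, the smallest p that an exact permutation test of a single gene can give is 0.1, so the p-values come from the fit across all genes.

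Among the complement and coagulation factors, 37 were tested, and MASP2, a starter protease of the lectin pathway, was the 1 gene that passed the threshold (adjusted p under 0.05). It was lower in fatty liver, and no factor was called higher. Across all tested genes 1.14% were called in either direction and 0.294% were called lower. At an unadjusted p under 0.05 there were 8 factors (21.6%), 7 lower and 1 higher, beside 16.3% of all tested genes. The birds with fatty liver lay below all control birds in 6 factors (16.2%, against 4.78% of all tested genes) and above them in 3 (8.11%, against 18.3%). After rescaling the corresponding numbers were 12 factors below (32.4%, against 11.1%) and 2 above (5.41%, against 10.4%). These shares describe the list and were not tested.

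The complement and clotting genes are described side by side, and the difference between them was not tested. In the 15 complement genes the median log2 fold change was -0.30, with 12 under 0 and 3 over 0, and the rescaled median was -0.46. The 22 tested clotting genes, which include the 4 adhesive and multifunctional proteins, had a median of 0.00, with 11 on each side of 0. Their rescaled median was -0.17. The genes of these pathways outside the list, given further below, had their medians in the opposite order, at 0.02 for complement and -0.26 for coagulation and fibrinolysis, so the contrast depends on which genes were listed. For all 37 genes the median was -0.08 as deposited and -0.25 rescaled, and 30 of the 37 lay below the median of all tested genes. The 95% interval of the fold change included 0 in 29 genes. In 31 genes the interval lay within a change of 1 on the log2 scale in either direction, and in the remaining 6 it reached that far.

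**Figure D1:**
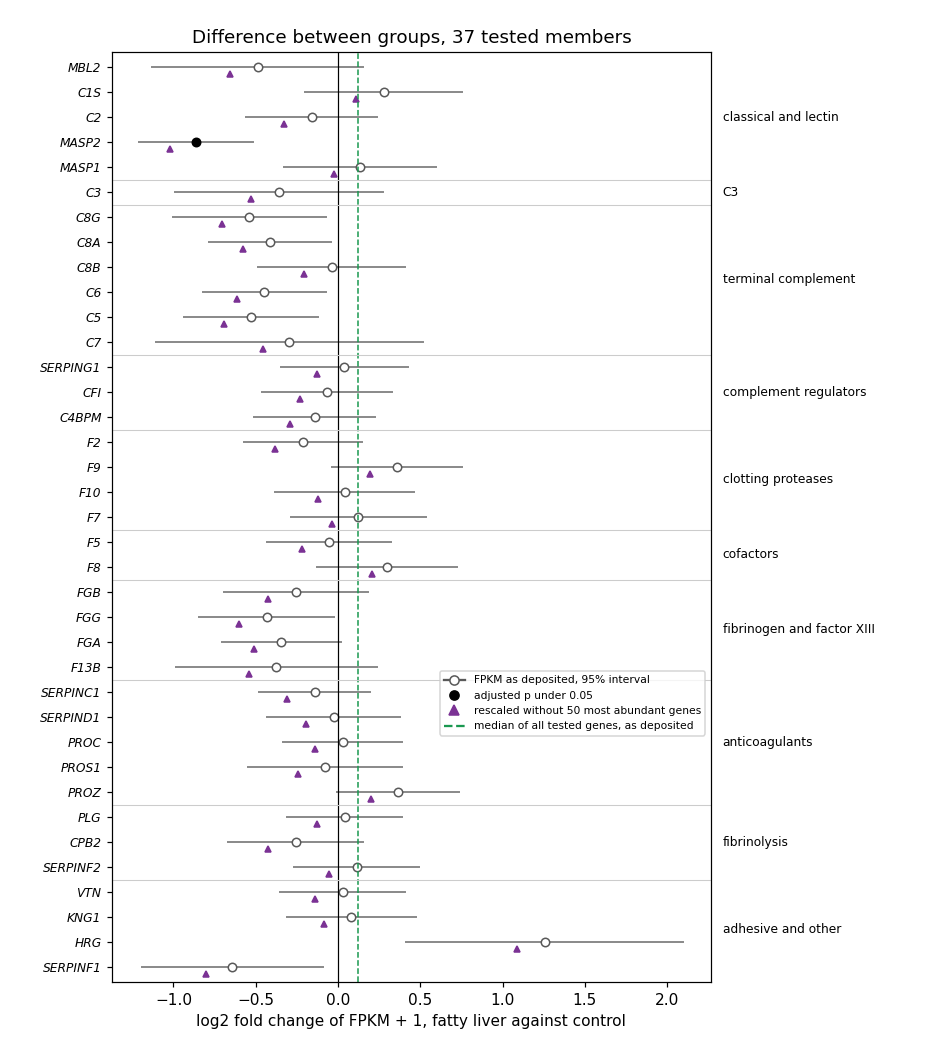
Log2 fold change of FPKM + 1 in fatty liver against control for the 37 tested factors, grouped by role, with horizontal lines as 95% intervals of the limma fit, triangles as rescaled values and a dashed line at the median of all tested genes (0.12). MASP2 (filled circle) is the 1 factor with an adjusted p under 0.05. All 6 terminal complement components lie under 0, though the intervals of C7 and C8B include 0.

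Most of these genes were abundant. The median control level of the tested factors was 237 FPKM, beside 6.47 FPKM for all tested genes, and 24 factors had a control mean of at least 100 FPKM. Of the 50 most abundant genes of the control livers, 6 were complement or coagulation factors, namely the fibrinogen chains FGB (rank 12), FGG (rank 15) and FGA (rank 18), VTN (rank 28), C3 (rank 41) and SERPINC1 (rank 46). At the other end, F13A1 and TFPI lay under the filter. Birds of the same group resembled each other closely in most of the factors. The highest control bird was a median of 1.32 times as high as the lowest, against 1.48 times for all tested genes, and among the tested factors this ratio exceeded 2 in C3, C7 and HRG. In fatty liver the median ratio was 1.23, against 1.36, and MBL2 was the 1 tested factor above 2. The factors were not compared with genes of like abundance, so these lower ratios cannot be taken as particular to them. Each tested factor was counted on between 60 and 131712 fragments per library.

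**Figure D2:**
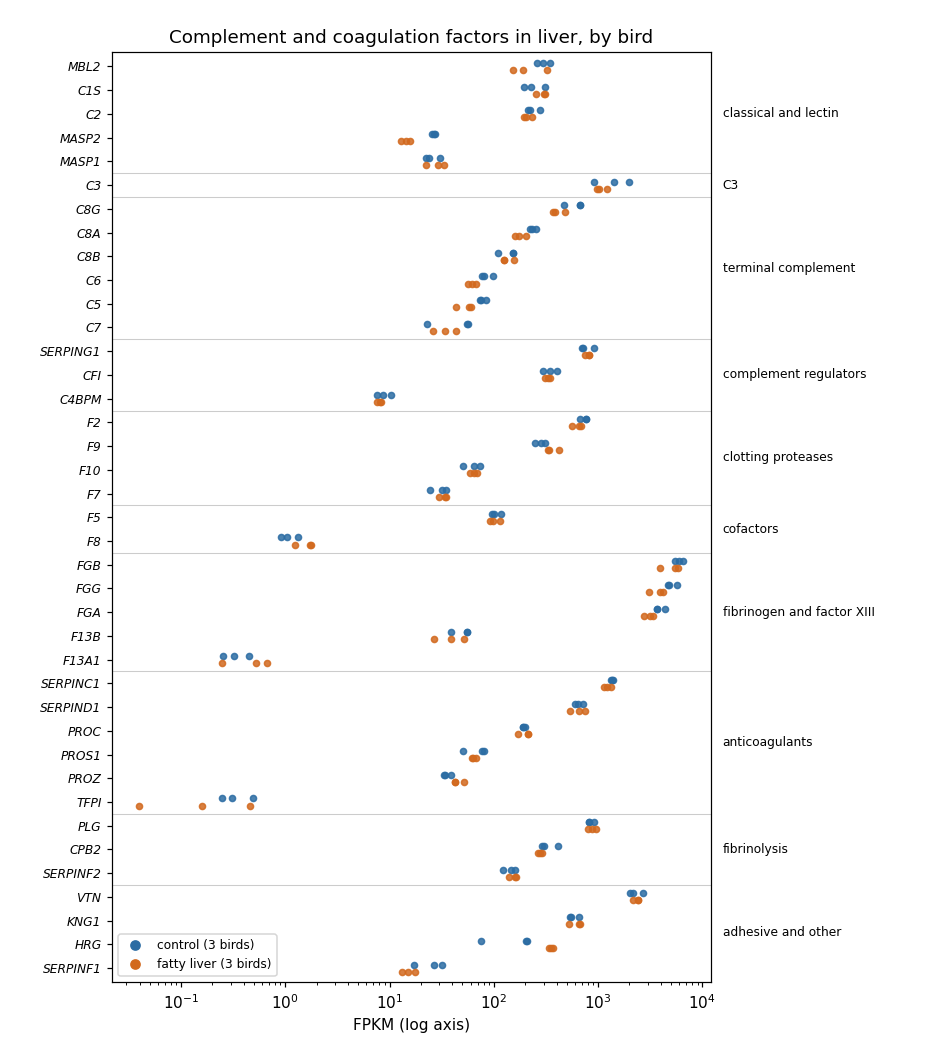
FPKM (log axis) of the 39 factors in each of the 3 control birds and 3 birds with fatty liver, grouped by role. The fibrinogen chains lie above all other factors, F13A1 and TFPI lie under 1 FPKM, and MASP2 is lower in all 3 birds with fatty liver.

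In the recognition and early protease steps of complement, MASP2 was called lower and no other gene was called. Whether MASP2 differed from these other genes was not tested, and the interval of MBL2, given below, includes the fold change of MASP2. MASP2 is cleaved into action when mannose-binding lectin docks on a microbial sugar, and it then cuts C4 and C2. Its level was 26.8, 25.5 and 27.6 FPKM in the control birds and 15.6, 14.3 and 12.8 FPKM in the birds with fatty liver. The groups were thus far apart and the birds within each close together, at 26.6 ± 1.04 and 14.2 ± 1.40 FPKM (mean ± SD, n = 3 each). The log2 fold change was -0.86 with a 95% interval from -1.21 to -0.52 (limma adjusted p = 0.0416), and rescaled it was -1.02 (adjusted p = 0.0386). Rescaling lowered most fold changes, so the rescaled value is no separate check of the call. The call lay close to the threshold and was lost when any 1 of the 6 birds was left out. Over the 14 alternatives the fold change stayed between -1.06 and -0.79 while the adjusted p ranged from 0.0323 to 0.172. Leaving out control replicate 1, 2 or 3 gave adjusted p of 0.105, 0.0852 and 0.092, and leaving out fatty liver replicate 1, 2 or 3 gave 0.0622, 0.148 and 0.172.

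MBL2, the mannose-binding lectin itself, was the most abundant gene of this step in the controls, though not in fatty livers. It stood at 342, 299 and 257 FPKM in the controls and at 324, 190 and 153 FPKM in fatty livers. Fatty liver replicate 1 was within the control range and the other two were below it (log2 fold change -0.49, 95% interval -1.13 to 0.15, adjusted p = 0.429). MASP1, a gene of the same family as MASP2, had 25.5 ± 4.12 FPKM in the controls and 28.2 ± 5.5 FPKM in fatty livers, with overlapping groups. The ratio of MASP2 to MASP1 within a bird does not depend on the scaling between libraries. It was 1.13, 1.13 and 0.913 in the control birds and 0.470, 0.641 and 0.438 in the birds with fatty liver, with no overlap.

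The classical pathway gene C1S, the protease that cuts C4 and C2 after antibody binding, had 193, 229 and 308 FPKM in the controls and 313, 256 and 302 FPKM in fatty livers. The ranges of the groups overlapped widely (log2 fold change 0.28, interval -0.20 to 0.75, adjusted p = 0.549). C2, the substrate of both C1S and MASP2, had 237 ± 35.9 and 211 ± 20.7 FPKM. Thus of the proteases that act on C4 and C2, MASP2 alone was called.

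C3, on which the branches meet, ranged widely among the control birds, at 1971, 910 and 1423 FPKM. In fatty liver it had 1030, 967 and 1214 FPKM, all inside the control range. The log2 fold change was -0.36 (interval -0.99 to 0.27, adjusted p = 0.562), and it was -0.10 without control replicate 1 and -0.65 without control replicate 2, so a difference could not be resolved.

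The terminal components form the pore. C5 is cut to start the assembly, C6 and C7 join it, and the 3 chains of C8 anchor it in the membrane. All 6 measured genes had fold changes under 0 both as deposited and after rescaling, with a median of -0.43 and a rescaled median of -0.60. None passed the threshold, 4 had an unadjusted p under 0.05, and in 3 of them all birds with fatty liver were below the controls, beside 16.3% and 4.78% of all tested genes. C8B lay close to 0 at -0.04 and was over 0 in 4 of the 6 fits with a library left out. Rescaling lowered all 6 fold changes, so it is no separate check of their direction. Summed over the 6 genes, the control birds reached 1057, 1215 and 1284 FPKM. The sums of the birds with fatty liver, 890, 819 and 913, lay below all of these. C8G weighed most in them, with a mean of 602 FPKM over the control birds and 411 over the others, and its own groups overlapped. The sums thus give the 6 genes unequal weight and were not tested.

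C5 had 74.7, 74.2 and 83.6 FPKM in the controls and 43.6, 57.8 and 60.1 FPKM in fatty livers. All 3 birds with fatty liver were lower than each control bird, and fatty liver replicate 1 was the lowest (log2 fold change -0.53, interval -0.94 to -0.12, adjusted p = 0.192). C6 had 79.8, 77.8 and 97.4 FPKM in the controls and 57.1, 61.5 and 66.9 FPKM in fatty livers. Here too the groups did not overlap (log2 fold change -0.45, interval -0.82 to -0.07, adjusted p = 0.225). C7, which lies next to C6 in the RefSeq gene order with no protein-coding gene between them, had 44.8 ± 18.8 and 34.4 ± 8.52 FPKM with overlapping groups (adjusted p = 0.731).

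The chains of C8 come from separate genes. C8A, the chain that inserts into the membrane, had 257, 231 and 224 FPKM in the controls and 159, 174 and 202 FPKM in fatty livers, and the groups did not overlap (log2 fold change -0.41, interval -0.79 to -0.04, adjusted p = 0.259). Its direct neighbour C8B, the chain that binds the growing complex, had 139 ± 24.9 and 135 ± 17.6 FPKM, with overlapping groups and a log2 fold change of -0.04. The ratio of C8B to C8A within a bird was 0.601, 0.479 and 0.684 in control and 0.783, 0.715 and 0.767 in fatty liver, so the adjacent pair stood in different proportions in the groups, without overlap. C8G, the small lipocalin chain and the most abundant terminal gene, had 469, 665 and 671 FPKM in the controls and 480, 367 and 386 FPKM in fatty livers. Control replicate 1 fell below fatty liver replicate 1 and the other control birds were well above all birds with fatty liver (log2 fold change -0.54, interval -1.0 to -0.08, adjusted p = 0.238). On the rescaled values the C8G groups no longer overlapped.

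None of the 3 complement regulators was called. SERPING1, the C1 inhibitor, had 919, 714 and 699 FPKM in the controls and 810, 742 and 826 FPKM in fatty livers, within the control range. The log2 fold change was 0.04 (interval -0.35 to 0.42, adjusted p = 0.94). CFI, the protease that inactivates C3b, had 348 ± 54.5 and 330 ± 20 FPKM. C4BPM, a membrane-bound regulator in the chicken, ranged from 7.54 to 10.4 FPKM over all 6 birds, and its groups separated only after rescaling, with fatty liver lower. The adjusted p was 0.887 for CFI and 0.716 for C4BPM.

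**Figure D3:**
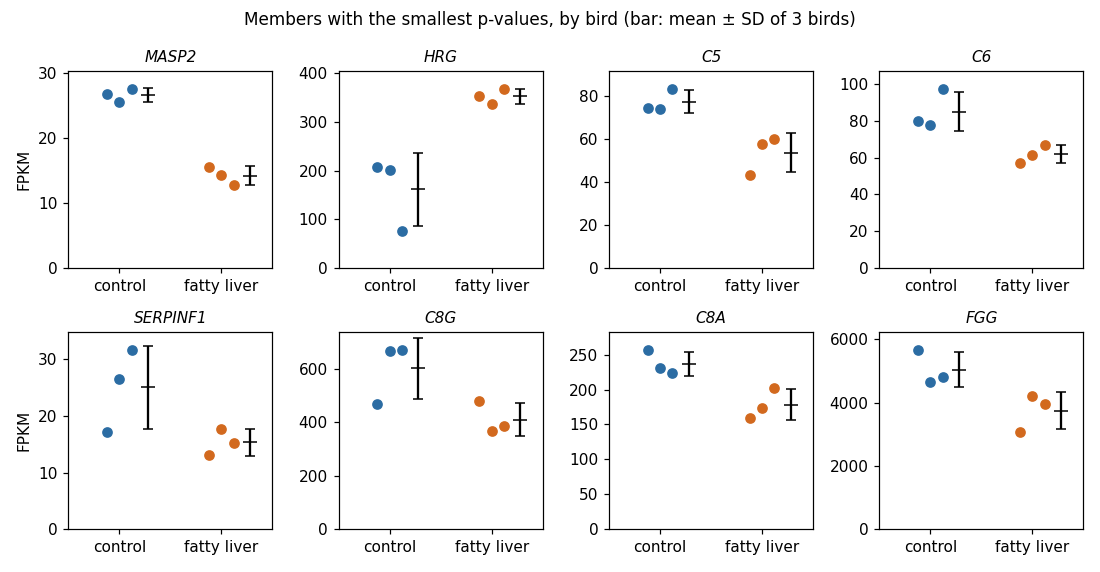
FPKM of the 8 factors with an unadjusted p under 0.05 in each control bird and each bird with fatty liver, with bars for the mean ± SD of 3 birds and axes from 0. In MASP2, HRG, C5, C6, C8A and FGG the groups do not overlap, whereas in SERPINF1 and C8G control replicate 1 lies among the birds with fatty liver.

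Of the vitamin K-dependent clotting proteases, none passed the test. F2, or prothrombin, was the most abundant, with 758, 674 and 770 FPKM in the controls and 566, 653 and 683 FPKM in fatty livers. Fatty liver replicate 3 exceeded control replicate 2, so the ranges overlapped as deposited (log2 fold change -0.21, interval -0.57 to 0.14, adjusted p = 0.539). After rescaling all birds with fatty liver were lower (log2 fold change -0.38, limma adjusted p = 0.308). F9, which activates factor X together with its cofactor F8, had 307, 286 and 249 FPKM in the controls and 336, 329 and 419 FPKM in fatty livers. All birds with fatty liver were higher as deposited (log2 fold change 0.36, interval -0.04 to 0.75, adjusted p = 0.351), but the groups overlapped after rescaling, where the fold change was 0.19.

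F7 and F10, which lie side by side, had fold changes of 0.12 and 0.04 with overlapping groups. The median of the 4 proteases was 0.08 as deposited and -0.08 rescaled, so their common direction depended on the scaling. The ratio of F9 to F10, whose products act in sequence, was 4.71, 3.89 and 4.98 in control and 5.64, 5.14 and 6.10 in fatty liver, and these ranges did not overlap.

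The cofactors showed no resolved difference. F5, the cofactor of factor X, had 117, 96.6 and 101 FPKM in the controls and 114, 97.4 and 92.4 FPKM in fatty livers, with overlapping groups. F8, which is made mostly by endothelial cells, was just above the filter at 1.04, 1.33 and 0.917 FPKM in the controls and 1.76, 1.24 and 1.73 FPKM in fatty livers. These values rest on 60 to 119 fragments per library, and control replicate 2 exceeded fatty liver replicate 2 (log2 fold change 0.30, interval -0.13 to 0.72, adjusted p = 0.466).

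Fibrinogen is built from the products of FGA, FGB and FGG, which form a cluster in the RefSeq gene order with FGA in the middle and no other protein-coding gene within it. The 3 chains were the most abundant coagulation genes in every bird, and all had fold changes under 0 as deposited and rescaled. FGB had 6580, 5475 and 5951 FPKM in the controls and 3953, 5824 and 5462 FPKM in fatty livers, where fatty liver replicate 2 lay within the control range (log2 fold change -0.26, interval -0.69 to 0.18, adjusted p = 0.543). FGG had 5668, 4651 and 4820 FPKM in the controls and 3082, 4210 and 3968 FPKM in fatty livers. All its control birds were higher (log2 fold change -0.43, interval -0.84 to -0.03, adjusted p = 0.279). FGA had 4381, 3708 and 3713 FPKM in the controls and 2780, 3352 and 3155 FPKM in fatty livers, also without overlap (log2 fold change -0.35, adjusted p = 0.324).

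Fatty liver replicate 1 was the lowest bird in all 3 chains and control replicate 1 the highest. With quantile normalization the fold changes were closer to 0, at -0.22 for FGG, -0.23 for FGA and -0.07 for FGB. Without fatty liver replicate 1 the fold change of FGG was -0.30 (adjusted p = 0.503). The proportions of the chains overlapped between the groups. The ratio of FGB to FGA was 1.53 ± 0.0668 in control and 1.63 ± 0.180 in fatty liver, and that of FGG to FGA was 1.28 ± 0.0242 and 1.21 ± 0.0856.

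Factor XIII, which crosslinks fibrin, has a catalytic subunit encoded by F13A1 and a carrier subunit encoded by F13B. F13B, made by hepatocytes, had 50 ± 9.5 and 39.2 ± 12.8 FPKM with overlapping groups (adjusted p = 0.525). F13A1, made mainly by blood cells and macrophages, lay under the filter at 0.326, 0.452 and 0.255 FPKM in the controls and 0.246, 0.672 and 0.520 FPKM in fatty livers. It was counted on 8 to 21 fragments per library and was not tested.

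No anticoagulant was called, and 4 of the 5 tested had overlapping groups. SERPINC1, or antithrombin, was the most abundant at 1402, 1347 and 1320 FPKM in the controls and 1341, 1136 and 1215 FPKM in fatty livers. Fatty liver replicate 1 lay among the control birds (log2 fold change -0.14, adjusted p = 0.682), and the groups separated only after rescaling. SERPIND1 (heparin cofactor II), PROC (protein C) and PROS1 (its cofactor protein S) had fold changes between -0.08 and 0.03 with overlapping groups.

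PROZ, a vitamin K-dependent protein that helps to inhibit factor X, had the highest fold change of the anticoagulants. Its level was 34.0, 38.5 and 33.2 FPKM in the controls and 52.1, 42.1 and 42.9 FPKM in fatty livers. The groups did not overlap before or after rescaling, although the gene did not pass the threshold (log2 fold change 0.36, interval -0.01 to 0.73, adjusted p = 0.316). The rescaled fold change was 0.20 (adjusted p = 0.579). TFPI, the inhibitor of the tissue factor pathway that endothelial cells make, was under the filter, with 0.307, 0.495 and 0.248 FPKM in the controls and 0.0399, 0.456 and 0.158 FPKM in fatty livers. It was counted on 1 to 11 fragments per library and was not tested.

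In fibrinolysis, PLG, the precursor of plasmin, had 909, 826 and 812 FPKM in the controls and 795, 951 and 879 FPKM in fatty livers. The groups overlapped (log2 fold change 0.04, interval -0.31 to 0.39, adjusted p = 0.925). SERPINF2, the main plasmin inhibitor, had a fold change of 0.11, and CPB2, which protects fibrin from plasmin, had 335 ± 63.7 and 277 ± 14.2 FPKM (adjusted p = 0.515). Neither was called.

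The adhesive and multifunctional plasma proteins held the fold change farthest above 0 in the list and one of those farthest below it. HRG, the histidine-rich glycoprotein, which binds heparin, plasminogen and fibrinogen, had 208, 202 and 75.5 FPKM in the controls and 354, 337 and 368 FPKM in fatty livers. All birds with fatty liver were higher, and control replicate 3 was far below the other control birds. The mean was 2.18 times as high in fatty liver, with a log2 fold change of 1.26 (interval 0.41 to 2.10, unadjusted p = 0.00882, adjusted p = 0.15). Without control replicate 3 the log2 fold change was 0.78 (adjusted p = 0.0926). KNG1, the kininogen gene that adjoins HRG and belongs to the same cystatin family, had 581 ± 63.4 and 616 ± 78.2 FPKM, with a fold change of 0.08. The ratio of HRG to KNG1 was 0.387, 0.309 and 0.137 in control and 0.543, 0.503 and 0.70 in fatty liver, with no overlap.

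SERPINF1, which encodes pigment epithelium-derived factor, a serpin without protease inhibition, had 17.1, 26.4 and 31.6 FPKM in the controls and 13.1, 17.7 and 15.1 FPKM in fatty livers. Control replicate 1 lay just below fatty liver replicate 2, and the other control birds were higher than all birds with fatty liver (log2 fold change -0.64, interval -1.19 to -0.09, adjusted p = 0.237). On the rescaled values the SERPINF1 groups no longer overlapped. VTN, or vitronectin, which stabilises the inhibitor of plasminogen activation and also blocks the complement pore, had 2705, 2040 and 2186 FPKM in the controls and 2439, 2167 and 2420 FPKM in fatty livers. The groups overlapped, with a fold change of 0.03 (interval -0.35 to 0.41, adjusted p = 0.956).

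**Figure D4:**
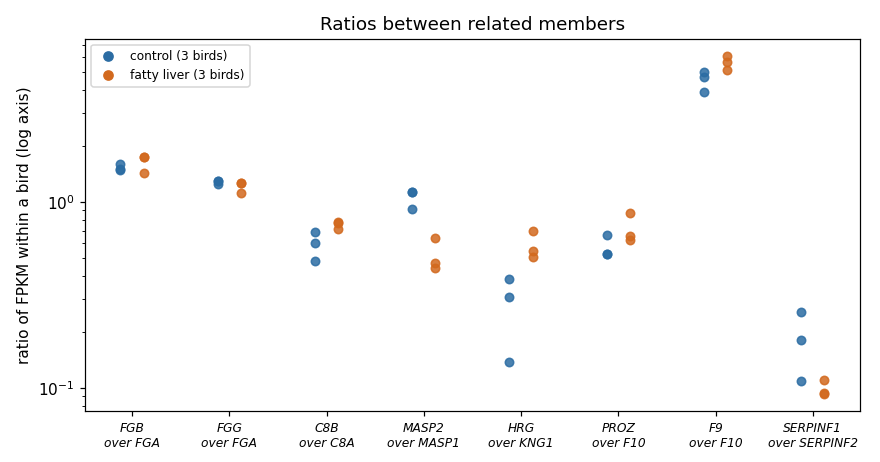
Ratio of FPKM within a bird (log axis) for 8 pairs of related factors in the 3 control birds and the 3 birds with fatty liver. The ratio of MASP2 to MASP1 is lower in all birds with fatty liver, the ratios of C8B to C8A, HRG to KNG1 and F9 to F10 are higher, and the remaining pairs overlap.

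The pairs were set beside each other as a description, and their ratios were not tested. Of the 15 ratios computed, 4 had groups without overlap, MASP2 to MASP1, C8B to C8A, HRG to KNG1 and F9 to F10. The pairs include the genes with the most extreme fold changes, and among single genes 4.78% of all tested genes had groups apart in the lower and 18.3% in the higher direction, so nothing is read from the number of such ratios. The direct neighbours C8A and C8B and the direct neighbours KNG1 and HRG were among them.

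The share of the summed FPKM held by these genes, which was not tested, was lower in every bird with fatty liver than in every control bird. Together the 39 factors held 5.07%, 4.18% and 4.40% of all FPKM in control birds and 3.43%, 3.85% and 3.82% in the birds with fatty liver, a difference of -0.85 percentage points without overlap. The fibrinogen chains made up the larger portion of this, with 2.47% ± 0.264 in control and 1.85% ± 0.269 in fatty liver, and the complement genes held 0.758% ± 0.112 and 0.597% ± 0.0381. Albumin, the most abundant plasma protein of the liver, had 16.0% ± 1.67 in control and 10.6% ± 0.944 in fatty liver. With albumin left out of the total, the share of the 39 factors was 5.42% ± 0.67 and 4.14% ± 0.26. Albumin held a larger share in every control bird, so leaving it out could only widen the gap and is no check of it. APOA1, which was higher in every bird with fatty liver, was not left out. These shares are of summed FPKM, so they move with the level of every other abundant gene.

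**Figure D5:**
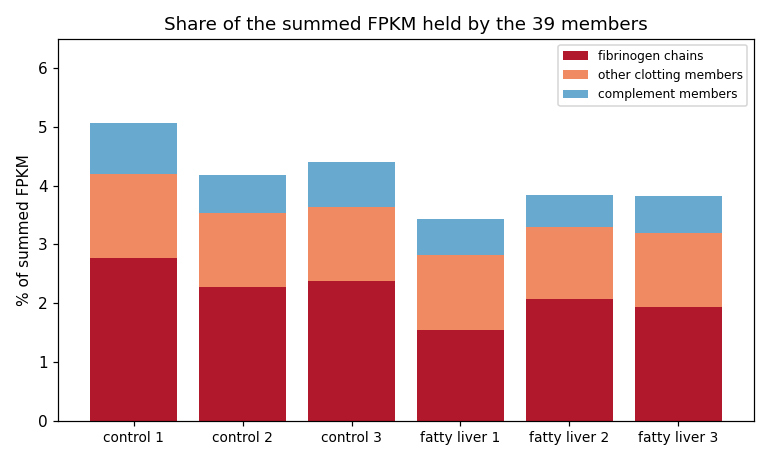
Share of the summed FPKM (%) held by the 39 factors in each library, stacked as fibrinogen chains, other clotting genes and complement genes, with the axis from 0. The 3 control birds reach 4.18% to 5.07% and the 3 birds with fatty liver 3.43% to 3.85%.

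Individual birds contributed unequally. Control replicate 1 was the highest of the 6 birds in 14 of the 37 tested factors, and fatty liver replicate 1 was the lowest in 12. Without control replicate 1 the median fold change of the factors was -0.04 and the difference in share -0.59 percentage points, and without fatty liver replicate 1 these were -0.09 and -0.72 percentage points.

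Other genes of the same pathways were examined to place the factors. Among 16 tested complement genes outside the list, none passed the threshold in limma, 2 were higher and 2 lower at an unadjusted p under 0.05, and the median fold change was 0.02 as deposited and -0.14 rescaled. C4, of the family cut by MASP2 and C1S, had 487, 402 and 417 FPKM in the controls and 334, 328 and 317 FPKM in fatty livers. Its groups did not overlap (log2 fold change -0.41, adjusted p = 0.236). A second C4 gene, C4A, had 544 and 497 FPKM on average, with overlapping groups (log2 fold change -0.12, adjusted p = 0.83). CD55, a membrane regulator that speeds the decay of the C3 convertases, had a fold change of -0.41 (adjusted p = 0.255). C1QBP, a binding protein of C1q, had a value of 0.50 (adjusted p = 0.172), and CLU (clusterin), an inhibitor of the terminal pore, had 0.83 (adjusted p = 0.191).

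Among 17 tested genes of coagulation and fibrinolysis outside the list, with a median of -0.26 as deposited and -0.40 rescaled, none was called. At an unadjusted p under 0.05, 2 were lower. These were ADAMTS13, the protease that trims von Willebrand factor (fold change -0.40, adjusted p = 0.261), and F2R, a thrombin receptor (-0.72, adjusted p = 0.235). Of 7 helpers of the vitamin K cycle and secretion, none was called. NQO1, a quinone reductase that can act on vitamin K, was the 1 gene with an unadjusted p under 0.05, at 152, 144 and 157 FPKM in the controls and 216, 285 and 257 FPKM in fatty livers (log2 fold change 0.73, adjusted p = 0.0805).

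The transcription factors that drive plasma protein genes in the liver and the acute phase genes were also counted. Of 13 tested liver transcription factors none was called. The fold change was over 0 in 11 and under 0 in 2, with a median of 0.35 as deposited and 0.19 rescaled. The highest belonged to HNF4A, whose groups overlapped (1.07, limma adjusted p = 0.308). It had 15.6, 14.7 and 4.43 FPKM in the controls and 15.2, 36.4 and 20.7 FPKM in fatty livers. Control replicate 3 was thus far below the other control birds. The same bird was the lowest control in CEBPA, at 26.3 FPKM beside 56.7 and 51.2 FPKM. CEBPA and CEBPB had fold changes of 0.89 (adjusted p = 0.182) and 1.01 (adjusted p = 0.128), whereas CEBPD had -0.66 (adjusted p = 0.244). Of 17 tested acute phase genes none was called, and 3 were higher and 5 lower at an unadjusted p under 0.05. The lowest p-values belonged to PIT54, the haemoglobin-binding protein of birds (fold change -0.84, adjusted p = 0.0765), CP, or ceruloplasmin (-0.61, adjusted p = 0.12), CEBPB, which this list shares with the transcription factors, and HPX, or hemopexin (-0.67, adjusted p = 0.133). Of 18 other secreted plasma proteins none was called, with 6 higher and 4 lower at an unadjusted p under 0.05. HPX and CP, which are in this list as well, had the lowest values of these, followed by albumin (-0.50, adjusted p = 0.15), and the highest belonged to APOA1, the main protein of high-density lipoprotein (1.13, adjusted p = 0.129). Plasma protein genes thus lay on both sides of 0. No gene of these 6 lists passed the threshold with voom on the recovered fragments either.

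These are bulk livers, in which fewer cells of a type and less RNA per cell cannot be told apart. The 9 hepatocyte markers summed to between 110000 and 137300 FPKM in the controls and between 113600 and 123400 FPKM in fatty livers. This sum is nearly all albumin and APOA1, which lay apart between the groups in opposite directions. Of the 9 markers 6 had fold changes under 0, and APOB and TAT were also lower in all birds with fatty liver (-0.27 and -0.44, adjusted p = 0.455 and 0.217), so the overlap of the sums does not hold for each marker. Macrophage markers (9 found) summed to 267.2 to 563.6 and 187.4 to 935.6 FPKM, and thrombocyte markers (6 found) to 19.23 to 43.21 and 27.46 to 35.46 FPKM. The sums for lymphocytes, endothelium, stellate cells and fibroblasts, bile duct and red blood cells also overlapped between the groups, and no marker found was at 0 in every bird. Single markers could still lie apart, as did RHAG of red blood cells (lower in fatty liver) and TUBB1 of thrombocytes (higher). Of the 8 lymphocyte markers, 6 had fold changes under 0 (median -0.37, rescaled -0.47). Of the 9 macrophage markers, 8 had fold changes over 0 (median 0.20, rescaled 0.08), and the groups overlapped in every one. The macrophage sum is mostly CD74. Within the bile duct list, SOX9 rose from 2.17 ± 0.744 to 8.43 ± 3.0 FPKM (adjusted p = 0.0383, and 0.0593 rescaled). The other 2 tested markers of that list lay under 0, EPCAM at -0.59 (adjusted p = 0.425) and KRT7 at -0.22 (adjusted p = 0.673). The part of cell composition in the differences was not tested.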

How the data were processed

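Livers of 6 birds were sequenced from TruSeq libraries. Per the submitters, reads were filtered with Sickle and SeqPrep and mapped to the chicken genome, and the authors deposited FPKM per gene and library. The aligner, counting tool and annotation are not given in the sources used here. Symbols came by NCBI Gene ID from a RefSeq gene table of another assembly, which named 16332 of 20498 IDs and was used for names and neighbours only.

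Genes averaging 1 FPKM or more were fitted as log2(FPKM + 1) with limma 3.58.1 in R 4.3.3 (lmFit, eBayes with trend, no covariate), with Benjamini-Hochberg adjustment at 0.05. The step was also run on simulated data with planted changes in both directions and no difference in scale between the libraries. That run therefore says nothing on how scaling moves these results. Whole fragments were recovered from the FPKM, and they gave back 99.99% of 17185 genes (relative tolerance 1e-06). Nothing says that strand was used in counting, so overlapping genes may share reads. P-values set the difference between the groups against the spread between these birds, as moderated over all tested genes.

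The factors, lists and tests were chosen with earlier results of these data known. Values per bird were given for factors with an adjusted or unadjusted p under 0.05, the 5 highest and 5 lowest fold changes, the most abundant of each role and those under the filter, and for neighbours or partners of these. In other lists, up to 5 genes with the lowest p-values were considered. C4, C4A, albumin, APOA1, APOB, TAT, HNF4A, CD3D and CD74 were described further after their values were seen. Results were recomputed with a pseudocount of 0.1, no filter, 3 other scalings, no trend, a replicate block, voom on fragments and each library left out.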

Additional observations from a re-analysis of the deposited data

How the results depend on the processing

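Over all tested genes, 124 were called, against 30 without the filter on low values, 79 with libraries scaled to the same median, and 20 to 127 with a library left out. Rescaling moved the calls that were higher from 92 of 124 to 44 of 84. The 1 call among the factors (MASP2) became 0 without the filter (adjusted p = 0.0729) and with the replicate block (adjusted p = 0.0816), and 0 in each of the 6 fits with a library left out. It was kept in the other 6 alternatives, its unadjusted p in limma was at most 0.00327 in all 14, and no other factor was called in any of them. No call among the other pathway genes appeared in any alternative.

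The median log2 fold change of the factors, -0.08, was -0.23 with the same median, -0.25 rescaled, -0.22 with quantile normalization and -0.23 with voom. It was between -0.13 and -0.04 with a library left out. The difference in share, -0.85 percentage points, was -1.29 without albumin in the total, and between -1.04 and -0.59 with a library left out. The cause of these moves was not tested.

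Both groups use the numbers 1 to 3, yet birds with the same number are different animals whose deviations correlated at 0.025, 0.045 and 0.048, so the numbers were not taken as pairs. The replicate block gave 140 calls over all genes. F13A1 and TFPI lay under the filter on low values.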
